A study of Mus musculus with 3 samples.

Results

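MiR-375 is a microRNA (miRNA), a short RNA that pairs with messenger RNAs and lowers their output. Its members here were the 2 mature names of the Mir375 hairpin, mmu-miR-375-3p and mmu-miR-375-5p (miR-375-3p and miR-375-5p), chosen by name among the 1915 mature mouse miRNAs listed for every library. The miRNA was singled out because of its levels in these libraries, so its counts, RPM values and arm ratio are given as a description, with no test. RPM is the number of reads of a miRNA per 1000000 miRNA reads of the same library. The libraries came from whole retinas of C57BL/6 mice (C57BL/6J in the study's methods) of 3 ages, 1, 7 and 17 days after birth (called P1, P7 and P17), and the labels name no treatment or mutation. Retinas of 5 eyes were pooled into 1 library per age, which leaves no replicate libraries, and the labels do not give the number or the sex of the mice. All intervals below therefore cover counting error within a library and not the spread between animals.

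A miRNA gene is transcribed into a precursor that folds into a hairpin, from which a 5p strand and a 3p strand are cut. Usually one strand is loaded into the silencing complex and the other is degraded, and bases 2 to 8 of the loaded strand, the seed, select its targets. MiR-375 is best known from the pancreatic islet, where it restrains insulin secretion and is needed for normal islet cell mass, and it is also found in the pituitary and in other neuroendocrine and secretory epithelial cells. The retina between P1 and P17 passes from the last divisions of its progenitors to mature photoreceptors, synapses and open eyes.

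The precursor is shown here because the values below rest on the balance of its arms. It came from the RefSeq hairpin table for GRCm38.p6, the build family of mm10, to which the authors aligned their reads. The table held 1 Mir375 hairpin of 64 bases and the mature sequence of 1 of the 2 members, miR-375-5p. Capitals mark the 5p arm in the precursor and the seed in the mature strand, both printed 5′ to 3′.
Mir375 hairpin: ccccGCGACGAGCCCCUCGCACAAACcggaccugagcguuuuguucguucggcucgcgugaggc
miR-375-5p: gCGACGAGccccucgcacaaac
The 5p arm took bases 5 to 26 of the hairpin, and in the structure of lowest energy 16 of its 22 bases were paired. No other mature name in the table shared its seed. The hairpin had a GC content of 67.2%, against a median of 51.7% over the 1005 mouse hairpins of the table, and it held 10 CpG dinucleotides. Only 23 of the 1005 hairpins (2.29%), miR-375 included, had as many CpG, and the median was 1.

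The hairpin lies on chromosome 1 from 74900658 to 74900721 on the minus strand, and the 5p arm from 74900696 to 74900717. Apart from its own gene entry (Mir375, ENSMUSG00000065616), the GENCODE annotation of GRCm38 placed no gene over it, so it is intergenic, in no exon, intron or UTR of another gene. Its neighbours on the same strand are Cfap65, a gene for a protein of cilia and flagella that ends 1350 bp upstream, and Cryba2, a gene of the beta-crystallin family, 7515 bp downstream. The nearest other annotated miRNA gene was 308892 bp away, so the hairpin is not part of a miRNA cluster.

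MiR-375-3p was scarce in the retina at P1 and P7 and well detected at P17. The P1 library gave 104 reads of mmu-miR-375-3p, or 9.10 RPM (95% Wilson interval 7.51 to 11.0). The P7 library gave 158 reads, or 12.4 RPM (10.6 to 14.5). The P17 library gave 2292 reads, or 196.6 RPM (188.7 to 204.8). The level thus stood in the order P17, P7 and P1, with the P17 value far outside the intervals of both younger libraries, while the intervals of the P1 and P7 levels overlapped. The other strand, mmu-miR-375-5p, had 0 reads in each of the 3 libraries. With a floor of 3 reads, such a count allows a level of up to 0.263 RPM in the P1 library, 0.235 RPM in the P7 library and 0.257 RPM in the P17 library. In whole retina a change in the number of cells that hold a miRNA cannot be told apart from a change in its amount per cell.

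**Figure D1:**
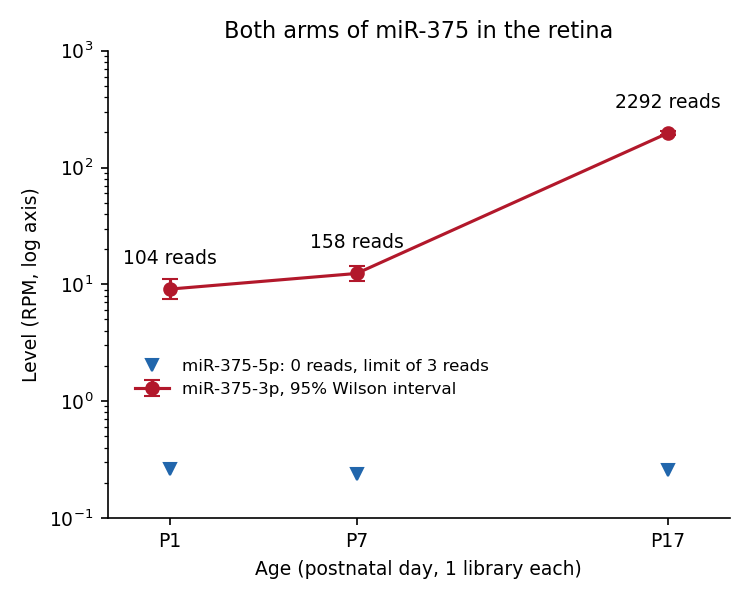
Level of both arms of miR-375 in RPM (log axis) against age in postnatal days, with 1 library per age. Red points are miR-375-3p with 95% Wilson intervals and their reads (104, 158 and 2292), and blue triangles mark the limit of 3 reads for miR-375-5p, which had 0 reads at each age; the 3p arm is far higher at P17 than at either younger age.

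Between P1 and P7 the RPM of miR-375-3p was 1.36-fold higher, with an exact 95% binomial interval of 1.06 to 1.76 for the ratio. Between P7 and P17 it was 15.9-fold higher (13.5 to 18.8), and between P1 and P17 it was 21.6-fold higher (17.7 to 26.5). On the log2 scale these ratios were 0.44 (0.08 to 0.82), 3.99 (3.76 to 4.23) and 4.43 (4.15 to 4.73). The step after P7 held 90.0% of the log2 difference between P1 and P17 and 98.3% of the difference in RPM. The first step spans 6 days and the second 10 days, so the mean log2 difference per day was 0.07 before P7 and 0.40 after it. The interval of the first ratio lies just above 1, and no replicate shows whether that difference exceeds the spread between animals.

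The same pattern appeared in the abundance order of each library. MiR-375-3p was in place 462 of the 1169 miRNAs with reads at P1, in place 360 of 1047 at P7 and in place 143 of 1045 at P17. At P1 it stood between miR-6977-3p (108 reads) and miR-137-3p (103 reads), and 1 other miRNA had the same 104 reads. At P7 its neighbours were miR-690 (160 reads) and let-7c-1-3p (156 reads). At P17 they were miR-138-5p, a brain-rich miRNA, with 2333 reads and miR-106b-3p with 2287 reads. Each neighbour differed from miR-375-3p by less than the width of its counting interval. Even at P17, miR-375-3p made up 0.0197% of the miRNA reads.

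The libraries held 11426320 to 12759995 miRNA reads, so that 1 read was worth 0.0784 to 0.0875 RPM. A total of 648 miRNAs averaged at least 1 RPM across all ages, among them miR-375-3p but not miR-375-5p. On the log2(RPM + 1) scale, which understates changes of scarce miRNAs and is used for all comparisons between miRNAs below, 3.09% of the 648 were over 2-fold higher at P7 than at P1, 14.0% at P17 than at P7 and 10.5% at P17 than at P1. Those over 2-fold lower were 44.8%, 11.6% and 46.8%. These shares depended on the scaling. Higher at P7 than at P1 were 20 miRNAs by RPM and 63 with the median-of-ratios size factors described below. From P1 to P17 there were 68 miRNAs higher and 303 lower by RPM against 166 higher and 153 lower with those size factors. MiR-375-3p changed by 0.41, 3.88 and 4.29 on this scale, and so belonged to the higher group after P7 and from P1 to P17 but not from P1 to P7. Since its own level led to its choice, its place in these groups is a description. The median change of all 648 was -0.87 from P1 to P7, -0.05 from P7 to P17 and -0.91 from P1 to P17, and miR-375-3p lay above that median by 1.27, 3.94 and 5.20. It took place 47, 4 and 3 among the 648 when these were ordered from the largest rise down. The places above it after P7 were taken by miR-211-3p (5.35), miR-29a-3p (4.37) and miR-211-5p (4.36), of which miR-211-3p was named after its values were seen.

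The size of the first step depended on the scaling more than that of the second. With median-of-ratios size factors, which bring the median change of all miRNAs from P1 to P17 from -0.91 to 0.01, the log2 ratio of miR-375-3p was 1.41 from P1 to P7, 4.07 from P7 to P17 and 5.48 from P1 to P17. With TMM factors, a trimmed mean of ratios, it was 1.43, 4.02 and 5.45. Under both, the ratio at P7 was thus over 2-fold, against 1.36-fold with RPM. The place of miR-375-3p in the order of rises from P1 to P17 was 3 under each of the 4 other scalings. A scaling shifts the log2 changes of all miRNAs alike, so this order could change only through the pseudocount and the filter. The unchanged place is therefore no support for it.

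**Figure D2:**
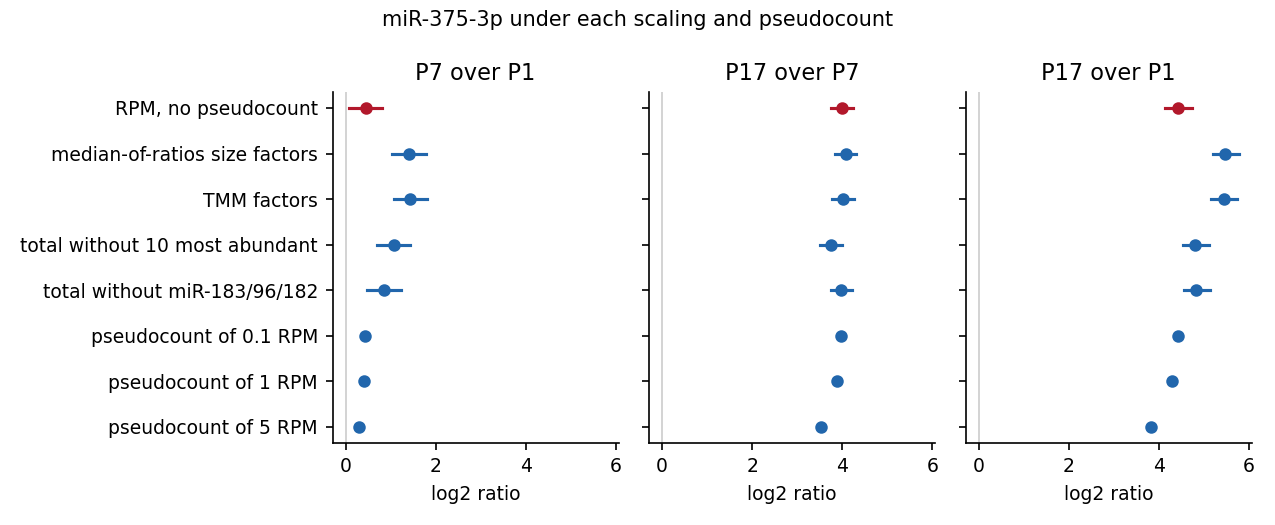
Log2 ratio of miR-375-3p between each pair of ages (x axis of each panel) under RPM, 4 other scalings and 3 pseudocounts (rows). Lines are exact 95% binomial intervals where a ratio of reads was used; all points lie to the right of 0, the P7 over P1 points spread from 0.30 to 1.43, and the P17 over P7 points lie between 3.54 and 4.07.

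A ratio of reads within a library does not depend on any scaling, so miR-375-3p was also set against 5 miRNAs often used as references in miRNA measurements. Per 1000 reads of miR-191-5p there were 3.37 reads of miR-375-3p at P1, 4.70 at P7 and then 46.9. Per 1000 reads of miR-16-5p there were 2.33, 3.98 and 84.7. Against miR-103-3p, miR-16-5p, miR-26a-5p, miR-361-5p and miR-191-5p the log2 change from P1 to P17 lay between 3.80, for miR-191-5p, and 5.85, for miR-361-5p. The change from P1 to P7 lay between 0.48 and 1.98 and that from P7 to P17 between 3.32 and 4.64, with the ratio higher at the older age in every case. The references moved themselves. Of the 5, 3 were over 2-fold lower in RPM at P17 than at P1, as were 46.8% of all 648 miRNAs. Their median change was -1.04 against -0.91 for all. With median-of-ratios size factors or TMM factors none of the 5 was over 2-fold lower and 1 was over 2-fold higher. Of the 644 miRNAs past the filter under each, 153 and 155 were over 2-fold lower and 166 and 163 over 2-fold higher.

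The 3p strand supplied every read assigned to the hairpin. With 0 reads of the 5p strand and a floor of 3, reads of the 3p arm were at least 34.7-fold higher than those of the 5p arm at P1, at least 52.7-fold higher at P7 and at least 764-fold higher at P17. If its reads could be counted, the 5p arm would by this floor have come to at most 2.88%, 1.90% and 0.131% of the 3p reads. These bounds differ between ages only because the depth of the 3p arm does, and whether the arm ratio changed could not be determined. Over the 3 libraries together the counts were 2554 and 0.

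Most hairpins of this depth gave reads from both arms. Of 749 hairpins listed with both arms under matching names, 159 had a major arm with at least the 2554 reads of miR-375. In 5 of these, or 3.14%, the other arm had 0 reads in all libraries. Besides miR-375 they were miR-101b, miR-146a, miR-374b and miR-383, with 43289, 3537, 27426 and 2813 reads of the major arm. Among the 60 hairpins whose major arm was within 2-fold of miR-375, the other arm had 0 reads in 5, or 8.33%, and a median of 154 reads. These 5 were miR-375, miR-146a, miR-383, miR-23a and miR-499, the last 2 with 1870 and 1592 reads of the major arm. The annotation and the counting rule are not given in the sources used here, and whether such names could collect reads was not tested, so that 0 reads is a listed value and not a measure of absence from the tissue.

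**Figure D3:**
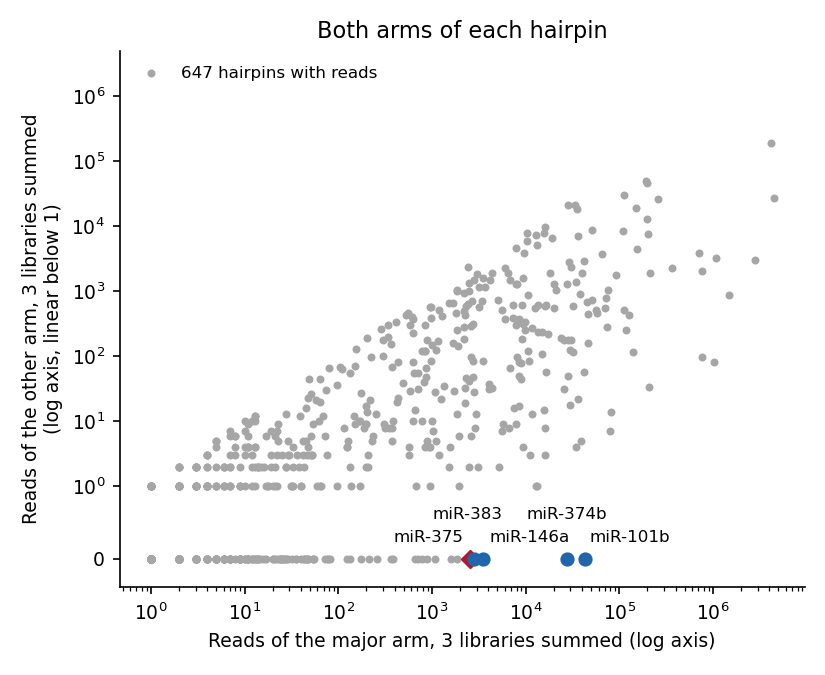
Reads of the other arm against reads of the major arm for the 647 hairpins with reads, summed over the 3 libraries (log axes, the y axis linear below 1). The red diamond is miR-375 with 2554 and 0 reads, and blue points are the 4 other hairpins with at least as many reads and none from the other arm.

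Reads that match several miRNAs can be counted under more than one name. In 7 sets of names with at least 100 reads in each library, several names carried identical reads in every library. No other name carried the reads of miR-375-3p in all 3, and the table held 1 Mir375 hairpin.

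The miRNAs with the most similar course were found by the distance between their changes on the log2(RPM + 1) scale over the steps P1 to P7 and P7 to P17. The nearest of the other 647 was miR-29a-3p, at a distance of 0.54, and the only one within 1, whereas the median distance was 4.25. MiR-29a-3p, known for repressing collagen and other matrix genes, had 359, 633 and 12184 reads, and changed by 0.64 before P7 and 4.37 after it. The next were miR-490-5p (1.18), miR-490-3p (1.20), miR-150-5p (1.23), miR-124-3p (1.25) and miR-29c-3p (1.27). Each of these 5 differed less than miR-375-3p after P7, by 2.64 to 3.20 against 3.88. MiR-150-5p, an miRNA of mature lymphocytes that is also found in other tissues, rested on 6 reads at P1, and its change is imprecise. MiR-124-3p, the main neuronal miRNA, had 17642, 26219 and 148978 reads. The same 6 miRNAs were nearest under median-of-ratios scaling, TMM scaling and a total that omits the sensory cluster miR-183, miR-96 and miR-182. Of these 6, 4 were among the nearest under a total that omits the 13 miRNAs found among the 10 most abundant of any library. A scaling shifts all miRNAs alike, so these distances could change only through the pseudocount and the filter. That the same names return is therefore no support for the likeness. Likeness over 3 libraries is a description and says nothing of shared control.

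**Figure D4:**
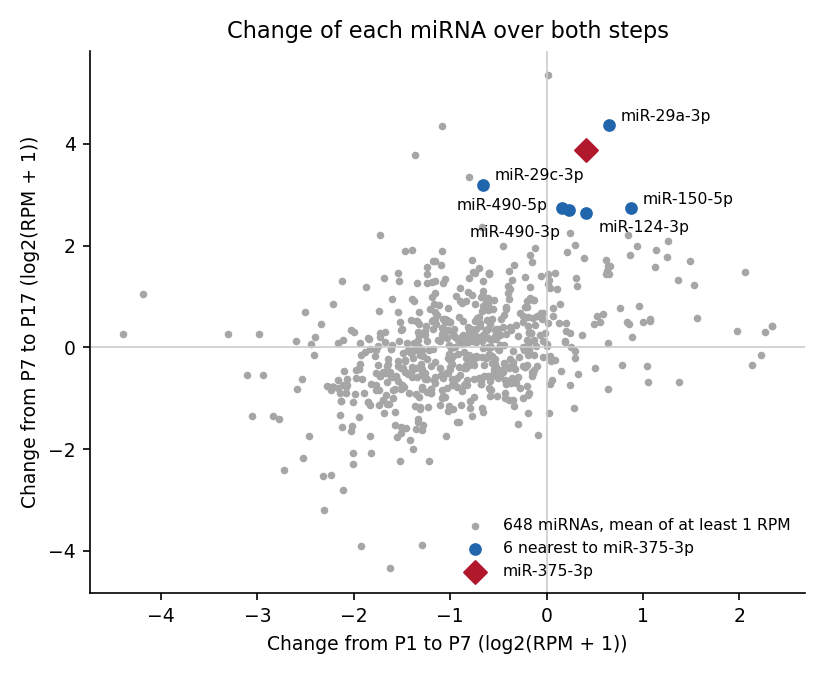
Change from P7 to P17 against change from P1 to P7, both on the log2(RPM + 1) scale, for the 648 miRNAs that averaged at least 1 RPM (grey). MiR-375-3p (red diamond, 0.41 and 3.88) lies at the top of the plot close to miR-29a-3p, above the other 5 of its 6 nearest miRNAs (blue).

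The mature sequences of these neighbours show which of them share a seed. The RefSeq table held 4 of the 6, printed 5′ to 3′ with the seed in capitals.
miR-29a-3p: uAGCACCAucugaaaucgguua
miR-29c-3p: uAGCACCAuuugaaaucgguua
miR-490-5p: cCAUGGAUcuccaggugggu
miR-490-3p: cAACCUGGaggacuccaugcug
MiR-29a-3p and miR-29c-3p had the same seed, which 3 mature names in the table carried, and miR-490-5p and miR-490-3p are the arms of one hairpin. The seeds of both miR-490 arms were carried by no other name. MiR-490 gave reads from both arms, with 333 of the 5p arm and 272 of the 3p arm at P17. A contrast in arm use with miR-375 cannot be drawn, since whether the name miR-375-5p could collect reads was not tested.

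MiRNAs that accompany miR-375 in the islet or in neuroendocrine cells did not share its course as a group. Of 5 listed miRNAs, all past the filter, 2 were over 2-fold higher and 2 over 2-fold lower at P17 than at P1, and the median change was -0.63 against -0.91 for all miRNAs, of which 10.5% were over 2-fold higher and 46.8% lower. The higher ones were miR-129-5p, which had 1258, 2255 and 10438 RPM in order of age, and miR-184-3p, which had 100.7, 119.0 and 568.9 RPM. MiR-7a-5p, the most abundant miRNA of this list and an islet miRNA like miR-375, went the other way, from 55878 RPM in the youngest library through 20143 to 16693 in the oldest. Reads of miR-375-3p per 1000 reads of miR-7a-5p were 0.163 at P1, 0.615 at P7 and then 11.8. With median-of-ratios size factors the median change of this list was 0.41, with miR-7a-5p at -0.70. None of its members was then over 2-fold lower, against 153 of the 644 miRNAs past the filter. With TMM factors the median was 0.38 and again none was, against 155 of 644.

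The miR-200 family, which marks epithelial and some neuroendocrine cells, was scarce. Its 5 members together had 44.0 RPM in the P1 library, then 6.43 and 7.46, and the 3 members past the filter were each over 2-fold lower at P17 than at P1, with a median change of -1.89, as were 46.8% of all 648 miRNAs. With median-of-ratios size factors that median was -0.99 and 1 of the 3 was over 2-fold lower, against 153 of the 644 miRNAs past the filter. With TMM factors it was -1.02 and 2 of the 3 were, against 155 of 644. MiR-216a-5p, miR-216b-5p and miR-217-5p, a cluster known from pancreatic acinar cells, summed to 3791, 558.1 and 287.1 RPM. All were over 2-fold lower under each of the 5 scalings, with a median change of -3.40 by RPM. Of all miRNAs past the filter, 303 of 648 were over 2-fold lower by RPM, 153 of 644 with size factors and 155 of 644 with TMM factors. The counts were 304 of 798 without the most abundant miRNAs and 251 of 678 without the sensory cluster.

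Photoreceptor miRNAs changed earlier than miR-375-3p. MiR-183-5p, miR-182-5p and miR-96-5p, the sensory cluster, summed to 77854, 304394 and 301141 RPM in order of age. All 3 were over 2-fold higher by RPM at P7 than at P1, as were 3.09% of all 648 miRNAs. They were within 2-fold between P7 and P17, a step over which 14.0% of all were higher and 11.6% lower. Per 1000 reads of miR-183-5p there were 0.329, 0.152 and 1.62 reads of miR-375-3p, so that the first step, higher by RPM, was a lower ratio within the library. Against miR-182-5p and miR-96-5p the log2 ratio likewise changed by -1.69 and -1.78 before P7 and by 4.34 and 4.13 after it. Against miR-124-3p it changed by 0.03 before P7 and by 1.35 after it, the smallest difference after P7 among the 10 denominators computed. There were 5.90, 6.03 and 15.4 reads of miR-375-3p per 1000 of miR-124-3p.

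**Figure D5:**
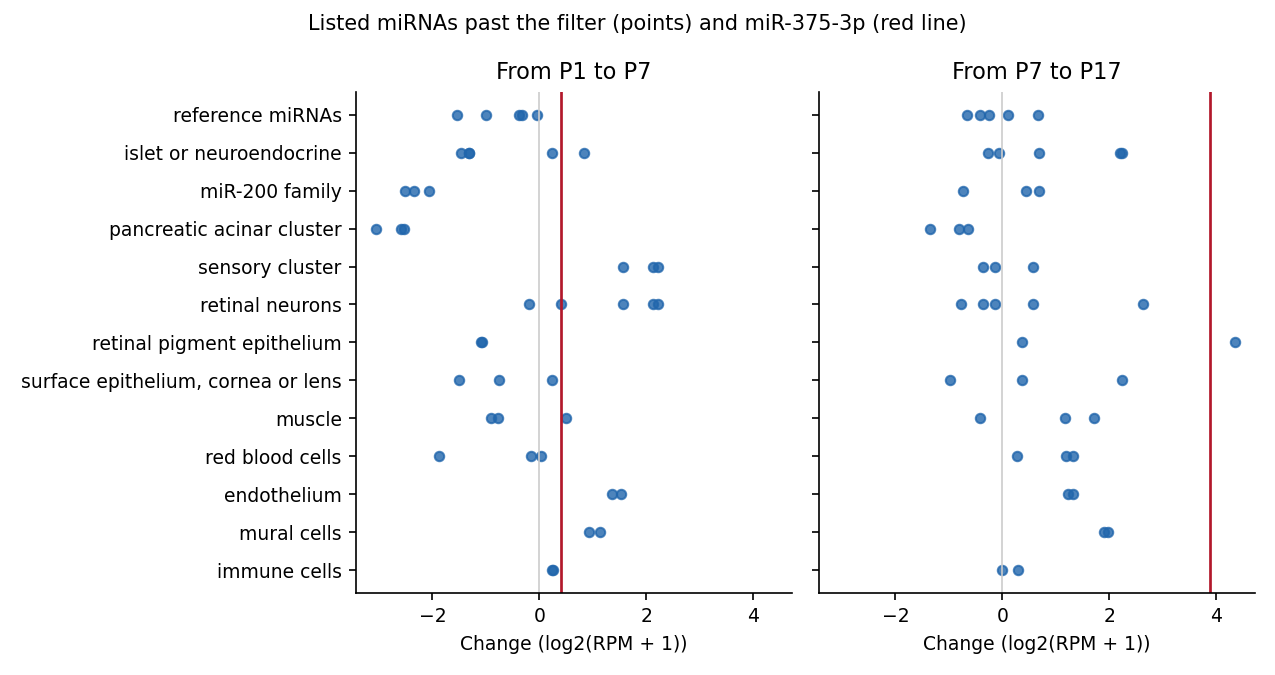
Change from P1 to P7 (left) and from P7 to P17 (right) on the log2(RPM + 1) scale for the listed miRNAs past the filter, 1 point per miRNA and 1 row per list. The red line is miR-375-3p (0.41 and 3.88), and after P7 a single listed miRNA, miR-211-5p of the retinal pigment epithelium list (4.36), lies to its right.

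All 5 miRNAs of the retinal neuron list had reads in each library and summed to 223656, 432211 and 387928 RPM. Of the 5, 3 were the sensory cluster given above. MiR-9-5p had 144259, 125762 and 74010.5 RPM, lower at P17 than at P7, and miR-124-3p had 1544, 2055 and 12777 RPM. Markers of every other listed tissue were also present in each library, so the presence of reads does not test the tissue label. Some of these markers were higher at P17 than at P7, as miR-375-3p was. The retinal pigment epithelium list (2 of 2 with reads) summed to 15211, 7226 and 14334 RPM. Of this, miR-211-5p had 549.7, 258.6 and 5315 RPM and miR-204-5p had 14662, 6967 and 9019 RPM. The surface epithelium, cornea or lens list (3 of 3) summed to 356.3, 269.3 and 645.3 RPM, of which miR-184-3p gave most at P17. MiR-203-3p went the other way, with 252.8, 149.9 and 75.7 RPM. MiR-205-5p, the marker of surface epithelium, stood at 31, 4 and 8 reads. The muscle list (3 of 3) summed to 132.4, 89.97 and 240.1 RPM, of which miR-1a-3p gave 111.8, 65.1 and 217.2. MiR-133a-3p had 4.81, 2.12 and 6.00 RPM, and miR-206-3p had 15.75, 22.73 and 16.90 RPM, lower at P17 than at P7. Endothelial miRNAs (2 of 2) summed to 1261, 3643 and 8530 RPM and mural cell miRNAs (2 of 2) to 195.0, 376.3 and 1492 RPM. Red blood cell miRNAs (3 of 3) stood at 161.4, 115.6 and 157.0 RPM, of which miR-486a-5p gave 114.7, 102.7 and 124.7. MiR-451a had 45.5, 11.7 and 27.9 RPM, and miR-144-3p had 13, 15 and 52 reads. Both were over 2-fold higher at P17 than at P7, as were 14.0% of all 648 miRNAs. Immune cell miRNAs (3 of 3) stood at 13.0, 15.9 and 18.1 RPM. Among single markers, miR-211-5p changed more than miR-375-3p from P7 to P17 (4.36 against 3.88 on the log2(RPM + 1) scale) and the others less. No marker listed had 0 reads, and the part of any of these cell types in the level of miR-375-3p was not tested.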

How the data were processed

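Small RNA libraries were prepared from total RNA of pooled retinas, 1 library per age. Adaptors and reads of low quality were removed by the authors, and the clean reads were aligned to mm10, with HISAT2 per their methods; the submitters' processing notes name FastQC and BWA instead. The miRNA annotation, counting rule and versions are not given in the sources used here. The authors deposited raw read counts per mature miRNA. The deposited RPM values equalled each count over the summed miRNA counts to within 0.0192 RPM, so an abundant miRNA that rises lowers all others.

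Members, lists and tests were chosen with earlier results of these data known. Ratios of miR-375-3p used no pseudocount; miRNAs were compared on log2(RPM + 1) with a mean of at least 1 RPM. Intervals are Wilson intervals for levels and exact binomial intervals for ratios, at 95%. PCR reads carried no molecular identifiers, so intervals and the floor of 3 reads cover counting only. With 1 library per age no test between ages was made. The miRNAs named were both members, the 6 nearest to miR-375-3p, its neighbours in abundance and the lists; the 3 nearest to miR-375-5p were not sought, as it had no reads. Sequences came from the RefSeq table (1623 of 1915 names matched). Alternatives were 4 scalings, pseudocounts of 0.1, 1 and 5 RPM and filters of none and 10 RPM. Size factors used 644 miRNAs. Steps were tested on simulated data. Tools were edgeR 4.0.16 in R 4.3.3 for TMM factors, ViennaRNA 2.7.2 for the hairpin fold, and Python 3.11.15 with scipy 1.17.1, numpy 2.4.6, pandas 2.3.3 and matplotlib 3.10.9.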

Additional observations from a re-analysis of the deposited data

How the results depend on the processing

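MiR-375-3p was higher at the older age of each pair under each scaling and pseudocount tried, but the amounts moved beyond counting error in 11 of 21 alternative values, and the cause was not tested beyond the shift that each scaling gives all miRNAs alike. With median-of-ratios size factors its log2 ratio was 1.41 from P1 to P7 and 5.48 from P1 to P17, with TMM factors 1.43 and 5.45, and with the sensory cluster (miR-183, miR-96 and miR-182) left out of the total 0.85 and 4.83, against 0.44 and 4.43 with RPM. A further total left out, in every library, the 13 miRNAs that were among the 10 most abundant of any library. With it the log2 ratio of miR-375-3p was 1.07 from P1 to P7, 3.74 from P7 to P17 and 4.81 from P1 to P17. With a pseudocount of 5 RPM the last 2 were 3.54 and 3.84. The miRNAs over 2-fold higher at P7 than at P1 numbered 20 with RPM, 63 with size factors, 64 with TMM factors, 41 without the sensory cluster and 56 without the most abundant miRNAs. Those higher at P17 than at P1 numbered 68 with RPM, 166 with size factors, 163 with TMM factors and 111 without the most abundant miRNAs. Those lower numbered 303, 153, 155 and 304. Without the sensory cluster 101 were higher and 251 lower. More were thus higher than lower with size factors and TMM factors, and fewer with both reduced totals, as with RPM. Of 168 values for the 42 listed and nearest miRNAs under the 4 scalings, 141 moved by more than counting error without a sign change of a 2-fold difference, and miR-26a-5p, over 2-fold lower with RPM (-1.04), had 0.0068 with size factors. Among miRNAs that differed less than 2-fold with RPM, miR-16-5p, miR-204-5p, miR-451a, miR-7b-5p and miR-9-5p also changed sign, each with both size factors and TMM factors. Counts under other pseudocounts and filters stayed within 1.5 times. No alternative could be computed for miR-375-5p or the arm ratio, since the 5p arm had no reads. No paired analysis was possible because only 1 library was made for each age, and for the same reason no library could be left out.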
